A study of Mus musculus with 2 samples.

Results

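Nacc1 binding sites on mouse chromosome 8 were examined in a peak list from chromatin immunoprecipitation followed by sequencing (ChIP-seq) in N2A, a line of mouse neuroblastoma cells. The members were selected by position, as every listed peak on chromosome 8, and numbered 578 of the 5942 peaks in the list (9.73%). The study comprised 1 ChIP library, for which chromatin of about 20000000 cells fixed in 1% formaldehyde was incubated with 4 µg of a Nacc1 antibody, and 1 input library without antibody. No genotype, treatment or time differed between them. The input has no values here, so no background could be set beside a peak, and read depth is unknown. With 1 ChIP library there is no replicate error. All comparisons are therefore descriptions of this list, and none was tested. Intervals on shares are exact 95% Clopper-Pearson intervals, which cover counting error only and treat neighbouring peaks as independent. A list of peaks holds no marker of cell identity, so the label of the line could not be checked.

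Nacc1 (nucleus accumbens associated 1) is a nuclear protein with a BTB/POZ domain, through which it pairs with itself and with other proteins, and a BEN domain, a fold that contacts DNA. It is known as a transcriptional repressor that recruits histone deacetylases and as a part of the protein network of pluripotent stem cells. Mouse autosomes carry the centromere at the end from which positions are counted, so the highest coordinates of chromosome 8 lie at its distal telomere. Positions below are in mm9. Gene annotation was not used here, because the gene table and promoter sequences at hand belong to another build, and no sequence is shown for the same reason.

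Chromosome 8 fell into a long part and a short distal end that was more crowded. The division was set at 120 Mb, with a peak placed by its midpoint. Before it lay 368 peaks over 117 Mb, or 3.15 peaks per Mb. Beyond it lay 210 peaks over 11.5 Mb, or 18.2 per Mb, a density ratio of 5.77 (interval 4.85 to 6.86). The distal end thus held 36.3% of the peaks (interval 32.4% to 40.4%) on 8.99% of the span between the first and the last listed peak. The boundary and the chromosome had been chosen from peak counts in these data, so the contrast in density describes that choice and is no finding of its own.

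The boundary lies at the edge of an empty stretch. The last 3 peaks before it were at chr8:119891146-119891572 (score 70.7), chr8:119897044-119897569 (score 102) and chr8:119994219-119994759 (score 173). The score is the value deposited for each peak, which in the format of the peak caller is −10 times the log10 of its p-value. No peak followed for 1.07 Mb. The first 3 beyond were at chr8:121060796-121061135 (score 61.2), chr8:121260527-121260829 (score 53.5) and chr8:121808986-121809429 (score 114.85). The crowded part therefore began near 122 Mb rather than at 120 Mb. From 122 to 131 Mb there were 205 peaks, 22.8 per Mb, which is 97.6% of all those beyond 120 Mb.

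**Figure D1:**
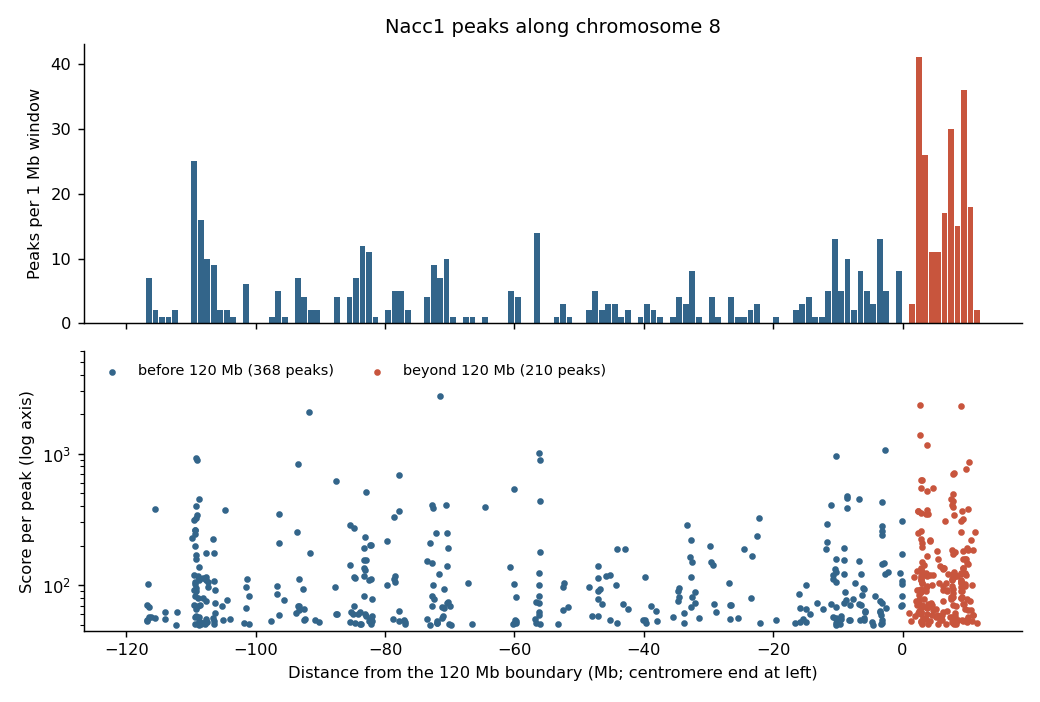
Nacc1 peaks along chromosome 8, with the distance from the 120 Mb boundary in Mb on the horizontal axis. Bars give the number of peaks per 1 Mb window and points the score of each peak on a log axis, with the 368 peaks before the boundary in blue and the 210 beyond it in red; the fullest window beyond the boundary holds 41 peaks and the fullest before it 25.

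Within the distal end the counts rose and fell. Single 1 Mb windows from 122 to 131 Mb held 41, 26, 11, 11, 17, 30, 15, 36 and 18 peaks. Below, windows are joined into stretches of unequal length, chosen after these counts were seen. The 2 Mb from 122 to 124 Mb held 67 peaks, the next 2 Mb held 22, the stretch from 126 to 128 Mb held 47, the single megabase from 128 to 129 Mb held 15, and the last full 2 Mb, from 129 to 131 Mb, held 54. Scores followed the same order only in part. The crowded stretches at 122 to 124 Mb and 129 to 131 Mb had median scores of 103 and 103.3. The thinner stretch at 124 to 126 Mb had a median of 72.5, and the window at 128 to 129 Mb, although it held 15 peaks, had a median of 58.4. In that window 5 of 15 peaks had a score of at least 100 (33.3%), not far from the 38.4% of the whole list. Of the 11 full windows of 1 Mb beyond 120 Mb, 7 held 15 or more peaks, and together they contained 183 peaks. Without the 3 fullest of them, which start at 122, 127 and 129 Mb, the density ratio of the 2 parts was 2.83 with the span kept, a fall that leaving out crowded windows brings by construction.

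The highest peak of each distal window differed widely in score. In the window at 122 to 123 Mb it was chr8:122749426-122750539 with a score of 2359, at 123 to 124 Mb chr8:123764714-123766155 with 1162, and in the window after that chr8:124711565-124712567 with 549.55. The next 2 windows had no strong site, with highest scores of 181 at chr8:125323874-125325133 and 307 at chr8:126594605-126595249. At 127 to 128 Mb the highest was chr8:127899205-127900466 with 714, and at 128 to 129 Mb chr8:128128685-128129335 with 179. The series closed with chr8:129060796-129062976 at 2302, chr8:130217369-130218346 at 870 and, after 131 Mb, chr8:131178165-131178712 at 252. At 121 to 122 Mb the highest score was 114.85. A count of 11 peaks was shared by the window that starts at 124 Mb and the one after it, whose highest scores were 549.55 and 181, so equally filled windows could differ in their strongest site.

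Before 120 Mb the density varied, with several denser patches. The fullest was toward the centromere end, where 51 peaks lay from 10 to 13 Mb, after empty windows from 8 to 10 Mb. It had 17 peaks per Mb, a median score of 102.6 and a highest score of 935. The windows at 10 to 11 Mb (25 peaks) and 11 to 12 Mb (16 peaks) were the ones before 120 Mb that reached 15. In the first of them 16 of 25 peaks (64%) had a score of at least 100, and in the fullest window beyond 120 Mb 21 of 41 (51.2%), where the whole list had 38.4%. Other patches included 23 peaks from 36 to 38 Mb, 14 from 63 to 64 Mb and 28 from 109 to 112 Mb, and the window at 116 to 117 Mb held 13. Elsewhere there were thin stretches, with 31 peaks over the 20 Mb from 65 to 85 Mb (1.55 per Mb) and 12 peaks over the 10 Mb from 95 to 105 Mb (1.20 per Mb). The single scores of these thin stretches reached 188 and 322, below the highest score of the patch from 10 to 13 Mb.

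Empty stretches of 1 Mb or more lay before 120 Mb, apart from the one that spans the boundary. The longest, from chr8:55479203 to 59354142, had 3.87 Mb without a listed peak. It was followed in length by 18951346 to 22394632 (3.44 Mb), 43025595 to 46444576 (3.42 Mb), 68204037 to 71476607 (3.27 Mb), 100413594 to 103434226 (3.02 Mb), 63897540 to 66789314 (2.89 Mb), 60282889 to 63119951 (2.84 Mb), 50181040 to 52796418 (2.62 Mb), 29780085 to 32260178 (2.48 Mb) and 97952828 to 100413296 (2.46 Mb). The last of these and the one from 100413594 were separated by a single peak with a score of 54.5. In all, 30 distances between neighbouring peaks reached 1 Mb and 18 reached 2 Mb. Those of at least 1 Mb summed to 63.8 Mb, or 49.7% of the span. Beyond 120 Mb the longest distance was 0.55 Mb and the median 17.98 kb, against a median of 78.6 kb before it.

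In spite of these stretches chromosome 8 was emptied less than most autosomes. Of its 127 windows of 1 Mb, 34 held no peak (26.8%, interval 19.3% to 35.4%), 33 before and 1 beyond 120 Mb. Over the other 18 autosomes 802 of 2209 windows were empty (36.3%, interval 34.3% to 38.4%), an interval that overlapped that of chromosome 8, and their shares ran from 26.0% on chromosome 10 to 51.3% on chromosome 3. The longest empty stretch of each of the other 18 autosomes was longer than that of chromosome 8, from 4.26 Mb on chromosome 19 to 12.9 Mb on chromosome 1. The number of peaks on a chromosome and their arrangement both bear on its empty windows, and they were not separated. Chromosome 2, with 568 peaks, had 30.5% of windows empty, and chromosome 19, with 173, had 26.8%.

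The distal end was set against stretches of the same length, 11.5 Mb, on the other autosomes. The last such stretch of their spans held from 1.91 peaks per Mb on chromosome 14 to 9.79 on chromosome 11, with a median of 4.07. Because the end of chromosome 8 had been picked for its count, the fullest stretch of this length anywhere on each autosome was measured as well. The length was still that of the picked end, and the chromosome was picked too, so the choice is not removed. The density of the fullest stretch ranged from 2.60 per Mb on chromosome 14 to 10.8 on chromosome 2. Chromosomes 11, 5 and 4 had 10.6, 9.70 and 9.10. The corresponding value of chromosome 8 was 18.7, from a stretch of 216 peaks that began at 119.6 Mb. Relative to the rest of its own chromosome this stretch was 6.04 times as dense, and on that scale chromosome 4 had 6.17 and chromosome 16 had 4.91. The stretch of chromosome 4 began at 129.7 Mb and was not the end of its span, whose last 11.5 Mb had 2.95 times the density of the rest. For last stretches the highest ratio among the other 18 autosomes was 4.91, on chromosome 16, against 5.77 on chromosome 8. The part before 120 Mb had 3.15 peaks per Mb, 1.32 times the 2.38 of the other autosomes together, and 3 of the 18 (chromosomes 2, 10 and 11) were denser over their whole spans.

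**Figure D2:**
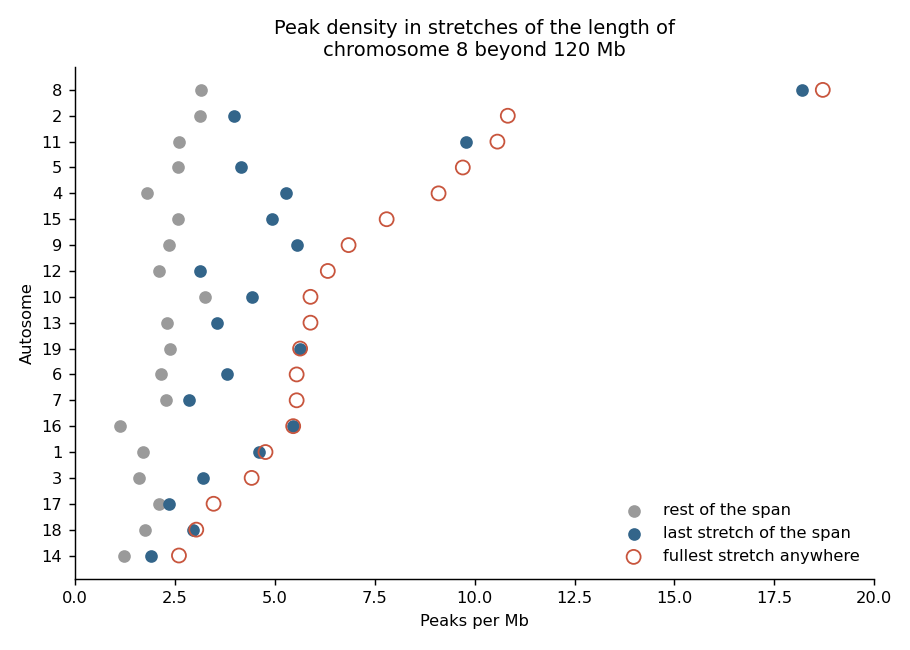
Peaks per Mb on the 19 autosomes, for the last 11.5 Mb of each span (blue), the fullest stretch of that length anywhere on the chromosome (red rings) and the span without the last stretch (grey). Chromosome 8 lies at 18.2 and 18.7, beyond the 10.8 of chromosome 2.

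A somewhat larger part of the distal peaks scored high. The median score was 98.8 beyond 120 Mb (quartiles 64.2 and 155) and 79.2 before it (quartiles 57.2 and 140). The exact intervals of these medians, from their order statistics, ran from 90.8 to 109.9 and from 72.6 to 90.5, so they barely missed each other, and the difference of 19.6 had an interval of 0.30 to 37.4. Among peaks of at least 100 alone the difference had the opposite sign, -16.2 (bounds -63.6 to 35.6), so a higher median beyond 120 Mb was not seen among the stronger peaks. The bounds also included 0 after merging peaks within 1 kb, with the boundary moved by 5 Mb to either side and without the 3 fullest distal windows. In these alternatives the differences were between 11.7 and 20.1, so the difference in score is uncertain. Of the 210 distal peaks, 103 scored at least 100, a caller p-value of 1e-10 (49.0%, interval 42.1% to 56.0%), and of the 368 before, 146 did (39.7%, interval 34.6% to 44.9%), where the whole list had 38.4%. At least 500 was scored by 13 peaks in each part, 6.19% (interval 3.34% to 10.4%) and 3.53% (interval 1.89% to 5.97%), where the whole list had 4.46%. The intervals of the 2 parts overlapped at both thresholds. Scores below 60, close to the lowest listed score of 50, made up 21.4% of distal peaks and 28.8% of the others, against 26.2% of the list.

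Over chromosome 8 as a whole, 249 of 578 peaks (43.1%, interval 39.0% to 47.2%) reached 100. The shares of the other 18 autosomes were lower, from 32.9% on chromosome 1 to 42.0% on chromosome 12, and the highest of them lay inside the interval. At 500 chromosome 8 was ordinary, with 4.50% and 8 autosomes above it.

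Scores of 1000 or more were listed for 8 peaks of chromosome 8 (1.38%, against 1.19% of the list), 4 on either side of 120 Mb. Before 120 Mb the strongest site of the chromosome, chr8:48448409-48449584 (score 2748, width 1176 bp), had its nearest neighbour 155 kb away. The site chr8:28183440-28185171 (score 2077, width 1732 bp) stood 188 kb from the next. At chr8:63753604-63754266 (score 1017, 663 bp) the nearest peak was 10.4 kb away, just outside the 10 kb used below to join peaks, and chr8:117299136-117300173 (score 1070, 1038 bp) had a weaker companion of score 122 at 1.59 kb. Beyond 120 Mb the site of score 2359 was followed after 6 bp by chr8:122750546-122751598 (score 1377, 1053 bp), so these 2 listed peaks may not be separate sites. The site chr8:129060796-129062976 (score 2302) was at 2181 bp the widest peak of the chromosome and had peaks of score 96.3 and 79.2 at 27 and 577 bp on its sides. The site chr8:123764714-123766155 (score 1162, 1442 bp) had a peak 1.71 kb away. Each of these 4 distal peaks therefore had a close neighbour, while 3 of the 4 proximal ones had none within 10 kb.

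Neighbours were counted for the 26 peaks of at least 500 as well. Of the 13 distal peaks, 12 had another listed peak within 10 kb (92.3%, interval 63.97% to 99.8%), and of the 13 before 120 Mb, 4 had (30.8%, interval 9.09% to 61.4%). These intervals did not overlap at 10 kb, but they did at 50 kb between midpoints, where 12 of 13 distal and 8 of 13 proximal peaks had another (61.5%, interval 31.6% to 86.1%). At that distance 87.9% of the 107 distal peaks below 100 had another too, so the contrast depends on the distance. Among the 12 distal peaks were those of scores 2359 and 1377, which lay 6 bp apart and may not be separate sites. Neighbours of these strong peaks were not counted again after merging. The median distance to the nearest peak was 1.58 kb beyond and 16.9 kb before. On the other autosomes 88 of 237 such peaks had a neighbour within 10 kb (37.1%, interval 31.0% to 43.6%). Singly their shares ran from 0% on chromosomes 18 and 19, with 7 and 3 such peaks, to 83.3% on chromosome 12, with 10 of 12. Chromosome 8 as a whole, with 16 of 26 (61.5%), lay below chromosome 12. The exception beyond 120 Mb was chr8:130217369-130218346, whose nearest peak lay 106 kb away. Crowding as such differed between the parts too, since among peaks below 60, 22 of 45 beyond (48.9%, interval 33.7% to 64.2%) and 22 of 106 before (20.8%, interval 13.5% to 29.7%) had a neighbour. Beyond 120 Mb the share with a neighbour was 48.4% at scores of 60 to 100, 56.25% at 100 to 200 and 65.4% at 200 to 500, with overlapping intervals.

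Peaks joined by distances within 10 kb formed 82 groups with 222 members, 38.4% of the chromosome (interval 34.4% to 42.5%), against 28.5% of the whole list. The part beyond 120 Mb had 117 grouped peaks of 210 (55.7%, interval 48.7% to 62.5%). The part before had 105 of 368 (28.5%, interval 24.0% to 33.4%), close to the 27.6% of the other autosomes. Among the other 18 autosomes the share ran from 14.7% on chromosome 16 to 34.8% on chromosome 5. Groups of 3 or more took up 67 distal peaks (31.9%, interval 25.7% to 38.7%) and 43 of the others (11.7%, interval 8.59% to 15.4%), where the whole list had 9.63%. Denser placement alone brings more neighbours within a fixed distance, and its part in these shares was not tested.

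Of the 82 groups 56 were pairs, 11 held 3 peaks, 8 held 4 and 7 held 5 or more. The other 18 autosomes had 636 groups, of which 11 held 5 or more (1.73%, interval 0.87% to 3.07%), against 8.54% on chromosome 8 (interval 3.50% to 16.8%), and none of them had more than 2 such groups. A group of 10 on chromosome 13 equalled the largest of chromosome 8. The strongest member reached 500 in 11 of 39 distal groups (28.2%, interval 15.001% to 44.9%) and in 4 of 43 before (9.30%, interval 2.59% to 22.1%), with overlapping intervals, and in 78 of 636 on the other autosomes (12.3%, interval 9.82% to 15.1%). In 18 groups of chromosome 8 no member reached 100 (22.0%, interval 13.6% to 32.5%), near the 26.3% of the other autosomes.

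The 7 largest groups were built differently. The group of 10 at chr8:122789519-122830354 opened with its strongest peak (score 630, 848 bp), followed within 0.96 kb by one of its weakest (score 53.8). A second broad peak, chr8:122820996-122822307 (score 356, 1312 bp), lay near its other end, and 5 of the 10 reached a score of 100. The group of 7 at chr8:122962673-123007305 was the longest, 44.6 kb, with distances between 4.17 and 8.56 kb. Its last peak was the strongest, at 628, and the other 6 had scores from 50.7 to 196. Between these groups lay 6 peaks at chr8:122859626-122872203, with a peak of score 550 and only 436 bp as the third of them.

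The remaining groups of 5 or more measured 23.8 kb or less. At chr8:123682673-123697340, 5 peaks had a highest score of 349 as the fourth of them. At chr8:127765028-127783337, 6 peaks included 4 with scores from 172 to 490, and the first 3 were divided by 14 and 58 bp. The 5 peaks at chr8:129025880-129049692 all reached 100, from 104.55 to 255, and lay 10.4 kb before the three-part site of score 2302, just outside the joining distance. The single large group before 120 Mb was at chr8:10601192-10611143, where 6 peaks filled 9.95 kb. Of these, 4 had scores between 198 and 264, the widest 2 measured 1270 and 1281 bp, and the smallest distance was 26 bp.

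**Figure D3:**
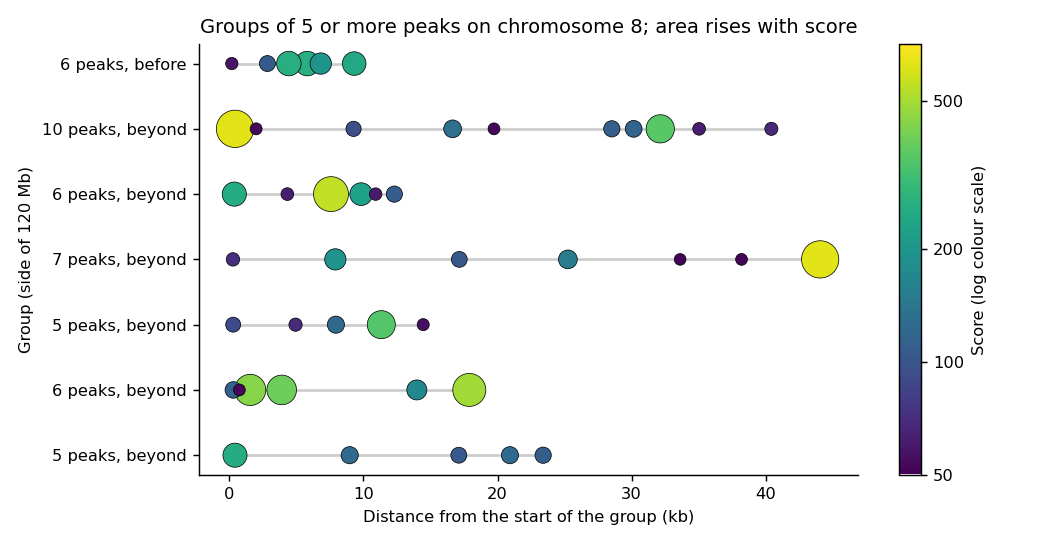
The 7 groups of 5 or more peaks on chromosome 8, with the distance from the start of the group in kb on the horizontal axis; each circle is a peak, its area and colour rise with its score, and rows name the side of 120 Mb. The group of 7 is the longest, at 44.6 kb, and the group before 120 Mb the shortest, at 9.95 kb.

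Some distances were very short. On chromosome 8, 39 of 577 neighbouring pairs were within 1 kb of each other (6.76%) and 10 within 100 bp (1.73%). The other 18 autosomes had up to 7.09% within 1 kb, on chromosome 15, and up to 2.67% within 100 bp, on chromosome 18, so very short distances were not particular to chromosome 8. The 10 were divided evenly between the 2 parts. Merging peaks within 1 kb left 539 on the chromosome and a density ratio of 5.69. In 20 of the 39 pairs the stronger score was at least 2 times the weaker. Neither peak summits nor read profiles were analysed here, so such pairs may be parts of single broad sites.

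Grouped peaks scored higher than isolated ones on both sides of 120 Mb. Beyond it the medians were 110 for 117 grouped peaks and 84.5 for 93 isolated ones, and before it 101 for 105 and 72.9 for 263. At least 100 was reached by 55.6% of grouped (interval 46.1% to 64.7%) and 40.9% of isolated peaks (interval 30.8% to 51.5%) beyond, and by 51.4% (interval 41.5% to 61.3%) and 34.98% (interval 29.2% to 41.1%) before. The 2 intervals overlapped beyond 120 Mb and just missed each other before it. On the other autosomes the corresponding shares were 46.4% and 34.8%. Scores were likewise higher in fuller windows of 1 Mb. On chromosome 8, 3 of the 23 peaks that were alone in their window reached 100 (13.04%, interval 2.78% to 33.6%), and 113 of the 224 in windows of 15 or more did (50.4%, interval 43.7% to 57.2%). On the other autosomes the shares ran from 28.4% of 422 to 44.5% of 512.

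Peaks of chromosome 8 were wider than those of the other autosomes. Their median width was 503.5 bp (interval 494 to 530, quartiles 396.5 and 654). The other autosomes together had 417 bp (interval 413 to 421), and singly their medians ran from 391 bp on chromosome 16 to 448 bp on chromosome 15, so none reached that of chromosome 8. Both parts were wide. The median was 496 bp before 120 Mb (interval 474 to 516) and 540.5 bp beyond it (interval 502 to 580), and these intervals overlapped. The 5 widest were the site of score 2302 at 2181 bp, chr8:71951817-71953920 at 2104 bp, the site of score 2077 at 1732 bp, chr8:116831092-116832578 at 1487 bp and the site of score 1162 at 1442 bp. The second of these had a score of 58.1, near the lowest in the list, and its nearest neighbour was 475 kb away. The last but 1 had a score of 428.

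The peaks of chromosome 8 were also wider at similar scores. In the lowest score class, 50 to 60, the median was 377 bp on chromosome 8 and 326 bp on the other autosomes, whose highest single median was 342 bp. At 60 to 100 it was 484 against 394 bp, with a highest of 412 bp elsewhere. At 100 to 200 it was 582.5 against 507 bp, and chromosome 15 had 583 bp. At 200 to 500 it was 742 against 630 bp, and chromosome 13 exceeded it with 777 bp. At 500 or more it was 1063 against 834 bp, from 26 and 237 peaks. In the lowest 2 classes, which hold 329 of the 578 peaks, both parts of the chromosome lay above every other autosome.

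**Figure D4:**
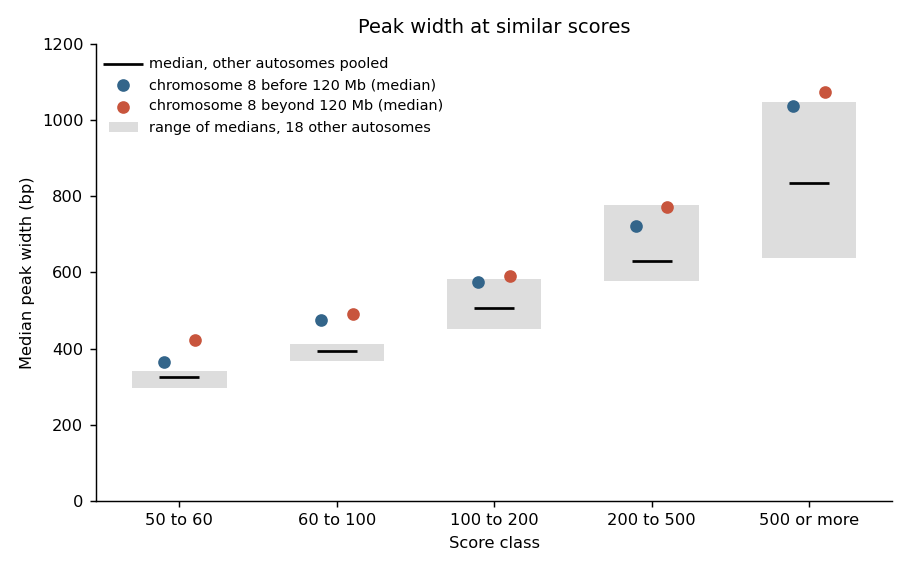
Median peak width in bp by score class for chromosome 8 before (blue) and beyond 120 Mb (red), with the range of the medians of the other 18 autosomes as grey bars and their pooled median as a black line. In the classes from 50 to 60 and 60 to 100 both points lie above the range, whose upper ends are 342 and 412 bp.

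Read the other way, peaks of similar width had lower median scores on chromosome 8, by little among narrow peaks. Up to 300 bp the medians were 53.8 on chromosome 8 (33 peaks) and 55.8 on the other autosomes (639 peaks). At 301 to 500 bp they were 64.2 (248 peaks) and 69.8 (3058 peaks). Peaks of 501 to 750 bp had a median score of 113 on chromosome 8 (211 peaks, quartiles 81.1 and 175) and 159 on the other autosomes (1203 peaks, quartiles 110 and 255). For 751 to 1000 bp the medians were 224 and 303. The values before and beyond 120 Mb were 111 and 117 in the class of 501 to 750 bp, so both sides were lower there. Above 1000 bp the median was 428 for 37 peaks of chromosome 8, against 562 for 133 on the other autosomes. It was 386 for 21 peaks before 120 Mb and 589 for 16 beyond, so only the part before was lower in that class.

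To express width at equal score as a single number, each width was divided by the median width of peaks in the same of 20 score classes on the other autosomes, a measure added after the widths had been seen. The median ratio was 1.17 on chromosome 8 (interval 1.14 to 1.20), and 440 of 578 peaks (76.1%, interval 72.4% to 79.5%) exceeded 1. The medians of the other 18 autosomes ran from 0.90 on chromosome 14 to 1.05 on chromosome 15, and their shares above 1 from 31.3% to 58.0% on chromosome 10. The ratio was 1.14 before 120 Mb and 1.22 beyond it. It was also raised where peaks stood alone, at 1.13 for the 263 isolated peaks before and 1.17 for the 93 beyond.

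Along the chromosome the ratio was uneven. In steps of 20 Mb from the centromere end it was 1.15 (84 peaks), 1.27 (61), 1.10 (53), 1.07 (42), 1.01 (39), 1.14 (89) and, beyond 120 Mb, 1.22 (210). Its lowest value thus fell between 80 and 100 Mb, where 20 of 39 peaks exceeded 1, and its highest between 20 and 40 Mb, where 51 of 61 did. Input coverage was not analysed here, so the number of copies of chromosome 8 in these cells is unknown, and its part in the numbers, scores and widths of the peaks was not tested.

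**Figure D5:**
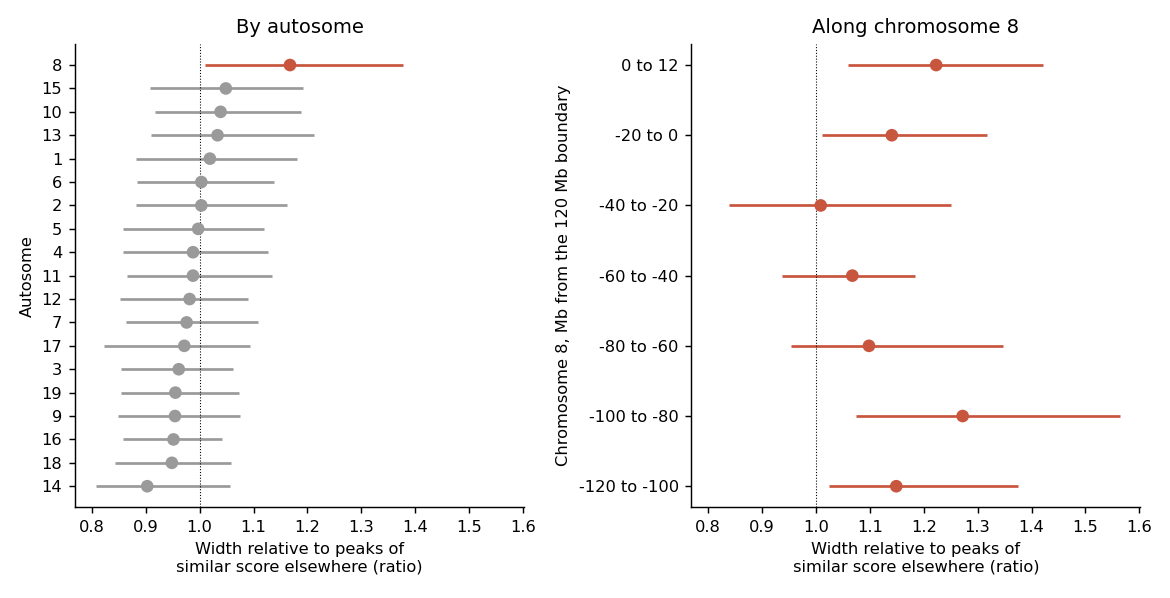
Width of each peak relative to peaks of similar score on the other autosomes, as medians (points) and quartiles (lines), by autosome on the left and by 20 Mb step of chromosome 8 on the right, where the last step holds the 210 peaks beyond the boundary. Chromosome 8 has a median of 1.17 and chromosome 15, the next, 1.05.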

How the data were processed

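The file analysed was the peak list of the Nacc1 ChIP library, without header, with 3 position columns, a name and a score. Peaks were called by MACS 1.4 on mm9, per the submitters' processing notes, which also name CASAVA 1.8, Bowtie2 and SAMtools. The sources used here give neither parameters nor whether the input served as control. The score deposited by the authors is, in the format of MACS 1.4, −10 times the log10 of a caller p-value, and was used only within this list. It rises with depth and width as well as with enrichment. The number of mapped reads is unknown.

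Starts were made 1-based. A span is the stretch between the outermost listed peaks of a chromosome. Distances are edge to edge, and windows of 1 Mb count midpoints. The members, the boundary and all lists were chosen with earlier results of these data known. Named regions were peaks of score 1000 or more, the 5 widest, 3 peaks on either side of 120 Mb, groups of 5 or more, the 10 longest empty stretches, windows of 15 or more peaks and the highest peak of each distal window; others were chosen after their values were seen. Alternatives were a score of at least 100, merging within 1 kb, a boundary moved by 5 Mb to either side and neighbour distances of 5 and 20 kb, with more added after seeing the data. The scripts were tested on simulated lists. Tools were SciPy 1.17.1, pandas 2.3.3, Matplotlib 3.10.9 and NumPy 2.4.6 under Python 3.11.15.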

Additional observations from a re-analysis of the deposited data

How the results depend on the processing

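The median score difference between the parts, 19.6, reversed to -16.2 when peaks below 100 were left out, which selects on the score compared. At that threshold the distal share was 41.4%, the share with a neighbour 33.7% and the share of empty windows 53.5%. The density ratio was 7.37 over the span of the peaks kept, and 7.14 over the span of all peaks. The distal share was 41.3% with the boundary 5 Mb lower and 22.3% with it 5 Mb higher, and the density ratio 4.76 with it 5 Mb lower and, added after seeing the data, 6.95 with it 2 Mb higher; moving the boundary moves peaks between the parts by construction. The share with a neighbour was 30.8% after merging within 1 kb, 29.6% at 5 kb and 52.6% at 20 kb. Without the 3 fullest distal windows, an alternative added after seeing the data, the distal share was 21.9%, the density ratio 2.83 and the share with a neighbour 31.0%. The remaining 22 comparisons of a result with an alternative stayed inside the exact interval of the reported value or, for differences, inside its wider bounds. Among them the relative width stayed between 1.14 and 1.20. For the width difference of 44.5 bp the bounds ran from -14 to 106. Its value of 6 bp without the 3 fullest distal windows therefore counted as inside. The bounds of the score difference included 0 in 5 of its 6 alternatives, so staying inside says little about that difference. No paired analysis was possible because there is 1 ChIP library, which also leaves no replicate to leave out. Read depth is unknown, so sites missed by the caller's threshold cannot be counted.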

Other observations

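Relative width at equal scores ordered the chromosomes as follows. After chromosome 8, at 1.17, came chromosomes 15 (1.05), 10 (1.04), 13 (1.03) and 1 (1.02), and the lowest were chromosomes 14 (0.90), 18 (0.95) and 16 (0.95). The 62 peaks of the X chromosome had a median of 0.92, and 18 of them (29.0%, interval 18.2% to 41.9%) exceeded 1. Across the 19 autosomes the median ratio went with peaks per Mb (Pearson's r = 0.76, Spearman's rho = 0.60), and over the 18 without chromosome 8 the values were 0.55 and 0.53. These points share 1 library, 1 depth and 1 reference for width, so they are given as a description without a test.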
